A study of Drosophila melanogaster with 4 samples.

Results

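Polycomb group (PcG) and Trithorax group (TrxG) genes were compared between Drosophila larvae with an extra copy of Inr-a and wild type larvae. The 10 genes were Pc, ph-p, ph-d, Psc, E(z), Su(z)12, esc, trx, ash1 and brm, chosen by symbol, and the values of all annotated transcripts of a symbol were summed. They are 10 of 14028 genes in the deposited values, and all 10 are among the 11540 genes that were tested after a filter on low counts. RNA had been sequenced from 2 libraries of pooled larvae per genotype, all raised at 25 °C and labelled as male and as larvae of the third instar. The Inr-a duplication larvae carried 3 copies of Inr-a. Their fathers were w[a]; Pcf11Dup/CyO GFP and their mothers Canton S, and the larvae used showed no green fluorescence, so they had not received the marked balancer. The wild type larvae came from the Canton S stock, with 2 copies of Inr-a. The paternal autosomes and the Y chromosome of the Inr-a duplication larvae thus derive from the duplication stock. The effects of this background and of the added copy cannot be told apart.

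PcG proteins keep developmental genes such as the Hox genes silent in cells where these genes were not turned on, and TrxG proteins keep them active where they were. PcG proteins work in complexes: Polycomb repressive complex PRC2 methylates histone H3, and PRC1 binds that mark through Pc, modifies histone H2A and compacts chromatin. Among the TrxG proteins, trx and ash1 methylate histone H3 at other positions, and brm is the ATPase that moves nucleosomes in the BAP and PBAP remodelling complexes. In larvae these proteins are best known from the imaginal discs, where mutations transform one segment into another.

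The deposited values are the mean CPM of each genotype, where CPM are read counts scaled to a common library total. Whole counts of single libraries were recovered from these means. The totals were 15423445 and 14084653 counts in the Inr-a duplication, and 12558720 and 11304266 counts in wild type. Within a genotype the library with the larger total is named A and the other B, letters that stand for no replicate number of the labels, and paired values are given with library A before library B throughout. Inr-a itself, listed under its synonym Pcf11 (FBgn0264962, reverse strand of chromosome 2R, 14860936 to 14871071 in BDGP6.54), had 1285 and 1338 counts in the Inr-a duplication, against 758 and 656 counts in wild type. In CPM the genotypes did not overlap, with a ratio of means of 1.51, a log2 fold change of 0.62 at an adjusted p = 0.18 from limma. With the trend of values with transcript length taken out the log2 fold change of Inr-a was 0.21 at an adjusted p = 0.673 from limma, and 0.04 to 0.37 with a library left out as well. Raw summed counts of Y-linked genes were 635 and 777 in the Inr-a duplication libraries and 775 and 733 in the wild type libraries. Relative to the library totals, both Inr-a duplication sums lay below both wild type sums, a difference that was not tested. Female yolk genes Yp1, Yp2 and Yp3 together had 1.56 and 1.49 CPM in the Inr-a duplication, against 3.504 and 2.30 CPM in wild type. Yp1 had 0 counts in all libraries, and Yp3, the only one tested, was not called.

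None of the 10 genes differed between the genotypes past the threshold, an adjusted p below 0.05 over all genes tested. Limma, run on log2 of scaled CPM plus 0.5, called 0 of 10 higher in the Inr-a duplication, where it called 1.72% of all genes tested higher, and 0 of 10 lower, where it called 0.503% of all genes lower. With voom, the other variance model, the count was also 0. At an unadjusted p below 0.05 limma gave 2 of the 10 genes higher, ph-p and Psc, where it gave 12.2% of all genes tested, and 0 lower, where it gave 8.61% of all genes, and voom gave 1. The point estimates nevertheless lay mostly on one side. The log2 fold change, Inr-a duplication over wild type, was above 0 for 9 of 10 genes, against 51.5% of all genes tested, and its median was 0.53 over the 10 genes and 0.02 over all genes tested. Most of the 10 genes are long, and of all genes of 4000 nt or longer 82.8% were above 0. With the trend of values with transcript length taken out, 6 of the 10 genes were above 0. The replicates are described as biological, but no source used here says whether they came from separate crosses, so these p-values measure only the spread between the sequenced libraries.

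**Figure D1:**
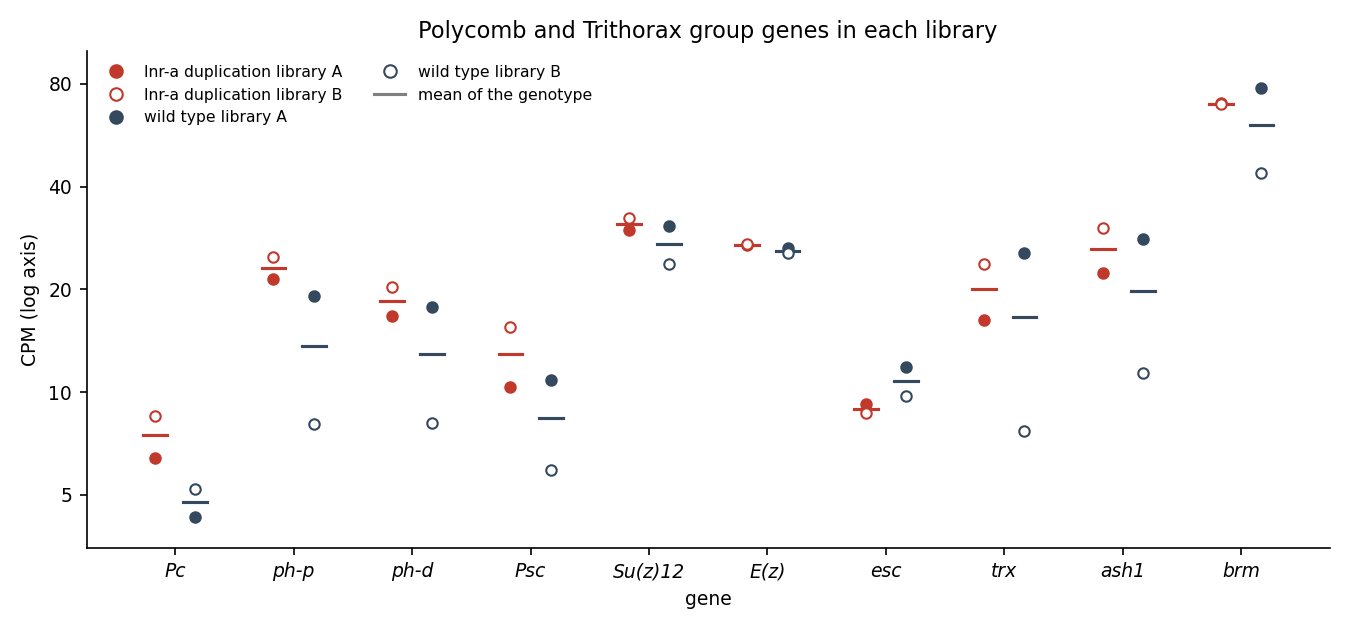
CPM (log axis) of the 10 genes in Inr-a duplication libraries (red, left of each pair) and wild type libraries (blue, right of each pair), filled for library A and open for library B, with a bar at the mean of the genotype. Both Inr-a duplication libraries lie above both wild type libraries for Pc, ph-p and E(z) and below them for esc, and wild type library B lies below wild type library A for 9 of 10 genes.

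In 3 of 10 genes both Inr-a duplication libraries had a higher CPM than both wild type libraries (Pc, ph-p and E(z)), against 22.9% of all genes tested. In 1 of 10, esc, both lay below, against 30.3% of all genes tested. The remaining 6 overlapped between the genotypes. After the trimmed-mean scaling used in the test, 5 of 10 genes had both Inr-a duplication libraries above both wild type libraries, against 27.0% of all genes tested. Those 5 were Pc, ph-p, ph-d, Psc and Su(z)12, so that E(z) and esc overlapped after scaling.

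PRC1 is represented by Pc, the chromodomain protein that reads the PRC2 mark, by the paralogs ph-p and ph-d, which polymerise through their SAM domains, and by Psc, a RING finger protein that compacts nucleosomes. Pc (FBgn0003042, reverse strand of chromosome 3L, 21306138 to 21318020 in BDGP6.54) had 99 and 120 counts in the Inr-a duplication, against 54 and 59 counts in wild type. This corresponds to 6.42 and 8.52 CPM in the Inr-a duplication and 4.30 and 5.22 CPM in wild type. The groups did not overlap, and the lowest Inr-a duplication library stood above the highest wild type library. The mean was 7.47 ± 1.49 CPM in the Inr-a duplication and 4.76 ± 0.65 CPM in wild type (SD, n = 2 each), a ratio of 1.57. Its log2 fold change of 0.62 had a standard error of 0.31 and a 95% interval from -0.03 to 1.27, with an adjusted p = 0.259 from limma. Pc was the only one of the 10 genes with a higher CPM in wild type library B than in wild type library A. It has 60 exonic bases in common with CG7632, a gene on the opposite strand.

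ph-p (FBgn0004861, reverse strand of chromosome X, 2126210 to 2138371) had 331 and 350 counts in the Inr-a duplication, against 241 and 91 counts in wild type. As CPM these were 21.5 and 24.8 in the Inr-a duplication and 19.2 and 8.05 in wild type. The Inr-a duplication libraries were alike, while wild type library A stood close to them and wild type library B far below. The ratio of means was 1.70, the largest among the 10 genes. Its log2 fold change was 0.89, with a standard error of 0.33 and a 95% interval from 0.22 to 1.57, and limma gave an adjusted p = 0.134.

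ph-d (FBgn0004860, reverse strand of chromosome X, 2115727 to 2123286) lies 2923 bases from ph-p. It had 258 and 286 counts in the Inr-a duplication, against 223 and 92 counts in wild type. On the CPM scale, 16.7 and 20.3 in the Inr-a duplication overlapped with 17.8 and 8.14 in wild type. Wild type library B again stood alone at the bottom. The log2 fold change was 0.62, with a 95% interval from -0.04 to 1.28 and an adjusted p = 0.263 from limma. Since ph-p and ph-d are close paralogs, the software that assigned the reads could have divided shared reads between them in any way, so their sum was also tested, a choice made after the data were seen. The sum had 38.2 and 45.2 CPM in the Inr-a duplication and 36.9 and 16.2 CPM in wild type, with a log2 fold change of 0.78, a standard error of 0.31 and an adjusted p = 0.166 from limma.

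Psc (FBgn0005624, reverse strand of chromosome 2R, 12965997 to 12980994) had 160 and 219 counts in the Inr-a duplication, against 136 and 67 counts in wild type. As CPM, 10.4 and 15.5 in the Inr-a duplication overlapped slightly with 10.8 and 5.93 in wild type. Inr-a duplication library A and wild type library A were nearly equal, with Inr-a duplication library B above both and wild type library B below both. The log2 fold change was 0.66, with a standard error of 0.32 and an adjusted p = 0.240 from limma.

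PRC2 is represented by E(z), the methyltransferase, by Su(z)12, which the enzyme needs for activity, and by esc, the WD40 protein that binds the methylated histone tail. E(z) (FBgn0000629, reverse strand of chromosome 3L, 10634575 to 10638130) had 416 and 382 counts in the Inr-a duplication, against 331 and 289 counts in wild type. These are 27.0 and 27.1 CPM in the Inr-a duplication and 26.4 and 25.6 CPM in wild type. All values lay within a narrow band, with a ratio of means of 1.04, and the groups were separate only by a small margin. The 95% interval of its log2 fold change of 0.09 ran from -0.46 to 0.64, so a change of moderate size in either direction could have been missed.

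Su(z)12 (FBgn0020887, reverse strand of chromosome 3L, 19918242 to 19923462) had 29.8 and 32.4 CPM in the Inr-a duplication, against 30.6 and 23.8 CPM in wild type. The groups overlapped, and wild type library B was the lowest. On the log2 scale its fold change was 0.23, with a 95% interval from -0.32 to 0.79 and an adjusted p = 0.641 from limma.

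esc (FBgn0000588, reverse strand of chromosome 2L, 11827204 to 11829405) was the only gene of the 10 with a negative log2 fold change. It had 9.21 and 8.66 CPM in the Inr-a duplication, against 11.9 and 9.73 CPM in wild type. The Inr-a duplication libraries lay below both wild type libraries on this scale by a small margin. The log2 fold change was -0.22, with a 95% interval from -0.83 to 0.38 and an adjusted p = 0.687 from limma. Its paralog escl, which can stand in for esc in PRC2, had 114 and 115 counts in the Inr-a duplication and 98 and 120 counts in wild type.

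Of the TrxG genes, trx (FBgn0003862, reverse strand of chromosome 3R, 14263358 to 14286903) encodes a large SET domain methyltransferase. It had 251 and 334 counts in the Inr-a duplication, against 320 and 87 counts in wild type. As CPM, 16.3 and 23.7 in the Inr-a duplication lay between 25.5 and 7.70 in wild type. Wild type library A held the highest value and wild type library B the lowest, so the wild type libraries differed more from each other than from the Inr-a duplication libraries. Its log2 fold change was 0.50, with a 95% interval from -0.27 to 1.26 and an adjusted p = 0.448 from limma. The 570 exonic bases that trx has in common with the opposite-strand RNA asRNA:CR46020 add an uncertainty, since no source used here states whether the libraries kept strand.

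ash1 (FBgn0005386, reverse strand of chromosome 3L, 19590773 to 19598755), another SET domain methyltransferase, had 345 and 426 counts in the Inr-a duplication, against 352 and 129 counts in wild type. The CPM were 22.4 and 30.2 in the Inr-a duplication and 28.0 and 11.4 in wild type. The groups overlapped, with wild type library B at the bottom. For ash1 the log2 fold change was 0.56, with a 95% interval from -0.12 to 1.23 and an adjusted p = 0.328 from limma.

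brm (FBgn0000212, reverse strand of chromosome 3L, 15970082 to 15982869) was the most abundant of the 10 genes. It had 1083 and 981 counts in the Inr-a duplication, against 976 and 496 counts in wild type. Both Inr-a duplication libraries, at 70.2 and 69.7 CPM, fell between the wild type libraries, at 77.7 and 43.9 CPM. The log2 fold change of brm was 0.29, with a 95% interval from -0.30 to 0.87 and an adjusted p = 0.575 from limma.

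The order of the genes by level was compared on a per-length scale. The CPM of each transcript was divided by its own length in kilobases, and the quotients were summed over the transcripts of a gene. In the Inr-a duplication the mean level was highest for brm at 13.1, followed by E(z) at 10.95, Su(z)12 at 7.88, esc at 5.24, ph-p at 4.004, ash1 at 3.46, ph-d at 3.08, Pc at 3.03, Psc at 2.10 and trx at 1.57 CPM per kilobase. In wild type the order was brm at 11.4, E(z) at 10.5, Su(z)12 at 6.89, esc at 6.34, ash1 at 2.59, ph-p at 2.34, ph-d at 2.15, Pc at 1.93, Psc at 1.32 and trx at 1.31 CPM per kilobase. Only ash1 and ph-p changed places between the genotypes, and their libraries overlapped in both. Neighbours whose libraries overlapped were ph-p and ash1, ash1 and ph-d, ph-d and Pc, and Psc and trx in the Inr-a duplication. In wild type they were brm and E(z), Su(z)12 and esc, ash1 and ph-p, ph-p and ph-d, ph-d and Pc, and Psc and trx. E(z), Su(z)12 and esc each stood above Pc, ph-p, ph-d and Psc on this scale in all 4 libraries.

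Ratios of counts between partner genes within a library do not depend on the scaling between libraries. The ratio of ph-p to ph-d was 1.28 and 1.22 in the Inr-a duplication, against 1.08 and 0.989 in wild type, so the groups did not overlap. This ratio depends on how reads shared by the paralogs were divided, which was not tested. Pc relative to E(z) was 0.238 and 0.314 in the Inr-a duplication and 0.163 and 0.204 in wild type, again without overlap. In the opposite direction, esc relative to E(z) was 0.341 and 0.319 in the Inr-a duplication, below 0.450 and 0.381 in wild type. The 6 other ratios computed overlapped between the genotypes, among them Su(z)12 to E(z), at 1.11 and 1.20 in the Inr-a duplication and 1.16 and 0.931 in wild type, and trx to ash1, at 0.728 and 0.784 in the Inr-a duplication and 0.909 and 0.674 in wild type. With 2 libraries per genotype, a two-sided exact permutation test cannot give a p below 0.333, and all 9 ratios had an adjusted p = 1 over the 9, so these ratios are a description.

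Wild type library B stood apart for the long genes of the set. Its CPM relative to wild type library A was 0.302 for trx, 0.407 for ash1, 0.419 for ph-p, 0.458 for ph-d, 0.547 for Psc and 0.565 for brm. The ratio was closer to 1 for the shorter genes Su(z)12, esc and E(z), at 0.778, 0.820 and 0.970, and was 1.21 for Pc. The longest annotated transcripts measure 14052 nt for trx, 7615 nt for ash1, 6332 nt for Psc, 6048 nt for ph-p, 6020 nt for ph-d, 5553 nt for brm and 4098 nt for Su(z)12, against 2650 nt for E(z), 2462 nt for Pc and 1704 nt for esc. Across the 10 genes, Spearman's rho between length and the ratio of wild type library B to A was -0.93, where it was -0.46 across 11510 genes tested with an annotated length. These points come from the same pair of libraries, and genes are not independent replicates.

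All genes tested showed the same trend in weaker form. For genes under 1000 nt the median ratio of wild type library B to A was 1.20, and it was 1.06 from 1000 to 2000 nt, 0.935 from 2000 to 4000 nt, 0.826 from 4000 to 6000 nt and 0.713 from 6000 nt on. The Inr-a duplication libraries ran the other way at the long end, with a median ratio of library B to A of 1.10, 1.04, 1.10, 1.20 and 1.33 over the same length groups. The median log2 fold change between the genotypes also differed between the length groups, at -0.21, -0.13, 0.13, 0.38 and 0.46 from the shortest to the longest. Of the 10 genes, 7 are 4000 nt or longer, 5 of them in the longest group, so the set as a whole is long. The ratio of wild type library B to A lay under the median of the length group for 8 of the 10 genes, and above it for Pc and E(z).

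**Figure D2:**
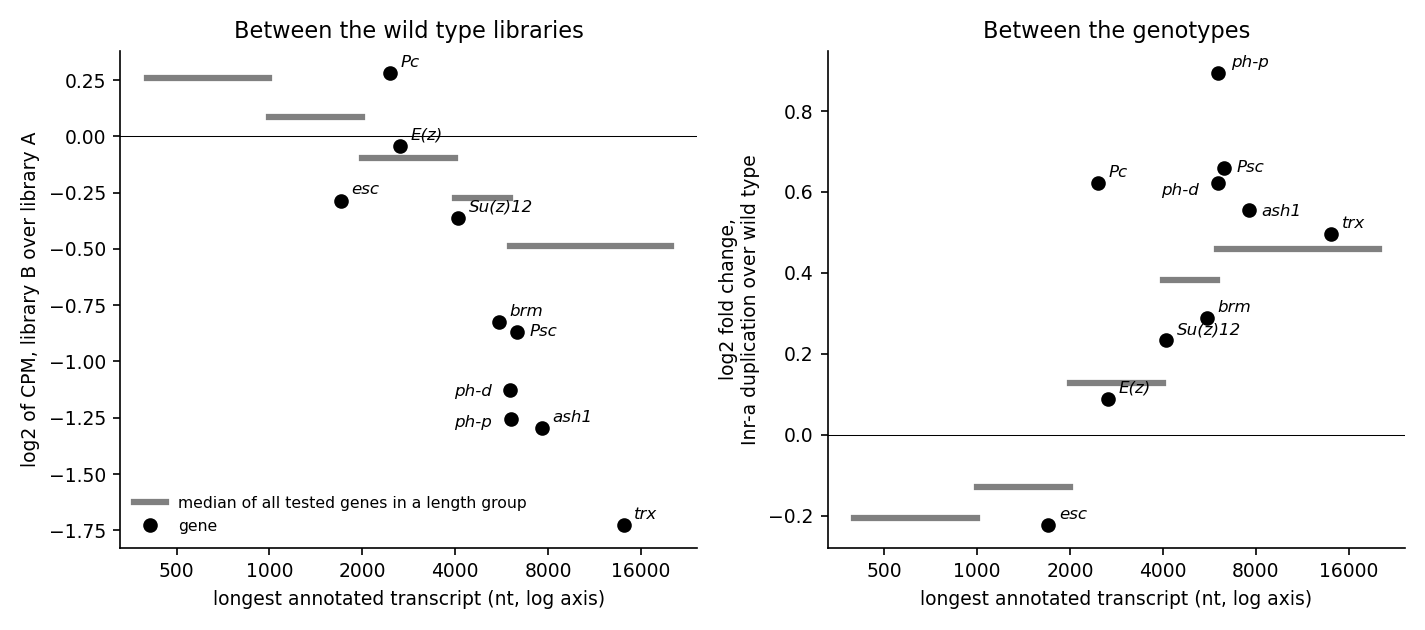
The left panel plots log2 of the CPM of wild type library B over wild type library A, and the right panel the log2 fold change of the Inr-a duplication over wild type, against the length of the longest annotated transcript (nt, log axis). Grey bars are medians of all genes tested in a length group, which run downwards with length between the wild type libraries and upwards between the genotypes, and black points are the 10 genes.

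When the trend with length was taken out of each library, the median log2 fold change of the 10 genes was 0.08, beside 0.01 over all genes tested. Pc was at 0.54, a loss of 0.08 on the log2 scale. ph-p, Psc and ph-d each lost about 0.40 and were at 0.50, 0.26 and 0.23, and ash1 and trx were at 0.13 and 0.03. The values of E(z), Su(z)12 and brm turned negative, at -0.02, -0.06 and -0.09, and esc was at -0.15. None was called, with adjusted p from limma between 0.331 for Pc and 0.970 for trx. What part the length trend has in the difference between the genotypes was not tested beyond this.

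Leaving out 1 library at a time showed which values rest on a single library. Without wild type library A, 4 of 10 genes were called higher in the Inr-a duplication, against 3.83% of all genes tested in that fit. These were ph-p, trx, ash1 and ph-d, with log2 fold changes of 1.497, 1.33, 1.19 and 1.16 and adjusted p of 0.0026, 0.0118, 0.0288 and 0.0375 from limma. That fit compares the Inr-a duplication with wild type library B alone, which is assumed to vary like the other libraries. Without wild type library B, in contrast, none of the 10 was called, and trx, brm and ash1 changed sign, to -0.35, -0.14 and -0.09. Leaving out either Inr-a duplication library called none and changed no sign.

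Across the 4 fits with a library left out, the log2 fold change of trx ranged from -0.35 to 1.33, the widest range of the set, and that of ash1 ranged from -0.09 to 1.19. ph-p ranged from 0.27 to 1.497 and ph-d from 0.07 to 1.16. Pc ranged only from 0.50 to 0.73 and E(z) from 0.01 to 0.16. The 6 genes above 0 in all 4 fits were Pc, ph-p, ph-d, Psc, Su(z)12 and E(z), and esc was below 0 in all 4, from -0.38 to -0.08. With the length trend taken out as well, a combination chosen after the data were seen, none of the 10 was called in any of the 4 fits, and the lowest adjusted p from limma was 0.151, for ph-p. In those fits Pc ranged from 0.39 to 0.69 and ph-p from 0.07 to 0.91, both above 0 throughout, and Psc stayed above 0 from 0.04 to 0.47.

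**Figure D3:**
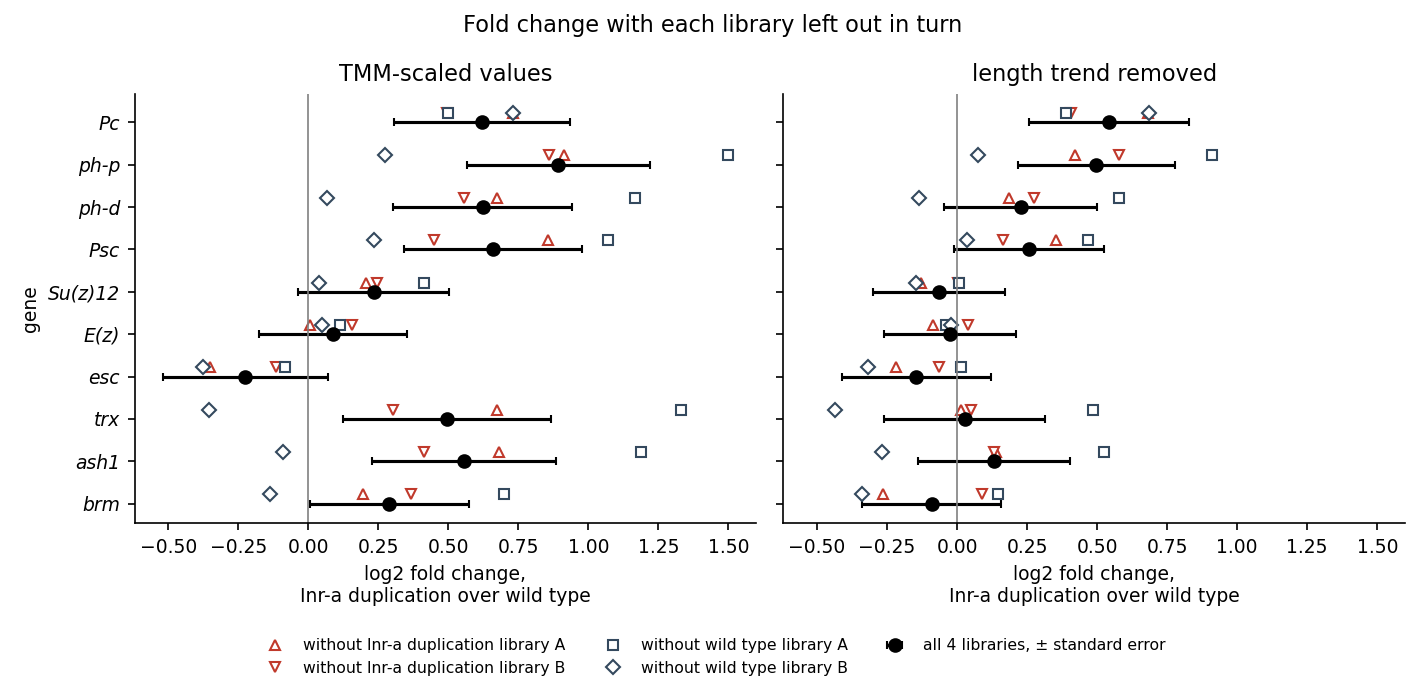
Log2 fold change of the Inr-a duplication over wild type for the 10 genes on TMM-scaled values (left panel) and with the length trend removed (right panel), for all 4 libraries (black, ± standard error) and with each library left out in turn (open symbols). Without wild type library A (blue squares) ph-p, trx, ash1 and ph-d lie at 1.497, 1.33, 1.19 and 1.16 in the left panel, and without wild type library B (blue diamonds) trx lies at -0.35.

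The 10 genes have 28 annotated transcripts in the deposited values, of which 4 were at 0 in all libraries. Of the other 24, 9 were at 0 in 1 library and at 10 or more counts in the other library of the same genotype. Libraries of a single genotype thus disagreed on which transcript was given counts. Some of these transcripts are much alike in length, such as brm-RC and brm-RD at 5327 and 5322 nt. How reads were divided between such transcripts was not tested, so a count of 0 does not show absence. Of 16 transcripts that passed the filter, limma called 0, with 1 at an unadjusted p below 0.05. This was ph-p-RB, which encodes the shorter ph-p protein of 1346 residues, with 194 and 292 counts in the Inr-a duplication against 125 and 71 counts in wild type. Its log2 fold change was 1.01 and the adjusted p from limma 0.438. The form ph-p-RA, which encodes 1589 residues, had 137 and 58 counts in the Inr-a duplication and 111 and 20 counts in wild type, while ph-p-RD had 5 counts in wild type library A and 0 in the others. The ph-p-RA share of the ph-p counts was 41.4% and 16.6% in the Inr-a duplication, and 46.1% and 22.0% in wild type. The share was higher in library A than in library B in both genotypes, and the exact 95% intervals, which cover counting error only, were 36.0% to 46.9% and 12.8% to 20.9% for the Inr-a duplication.

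The brm transcripts showed the same disagreement most plainly. brm-RC, which encodes 1634 residues, had 519 and 0 counts in the Inr-a duplication and 85 and 265 counts in wild type. brm-RE, which encodes 1658 residues, had 553 and 860 counts in the Inr-a duplication and 891 and 196 counts in wild type. In the Inr-a duplication all brm transcripts together, at 1083 and 981 counts, were steadier than either of these. Psc-RB was counted in 1 library alone, with 84 and 0 counts in the Inr-a duplication and 0 and 0 counts in wild type, while Psc-RC, which encodes the same 1601 residues, had 76 and 219 counts in the Inr-a duplication and 136 and 67 counts in wild type. For trx, the main form trx-RC, which encodes 3358 residues, had 135 and 302 counts in the Inr-a duplication and 249 and 68 counts in wild type. For ash1, ash1-RB had 345 and 312 counts in the Inr-a duplication and 352 and 129 counts in wild type. E(z)-RB and Su(z)12-RB held 82.4% or more of the counts of their genes in each library, and Pc, esc and ph-d were each counted on a single transcript.

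**Figure D4:**
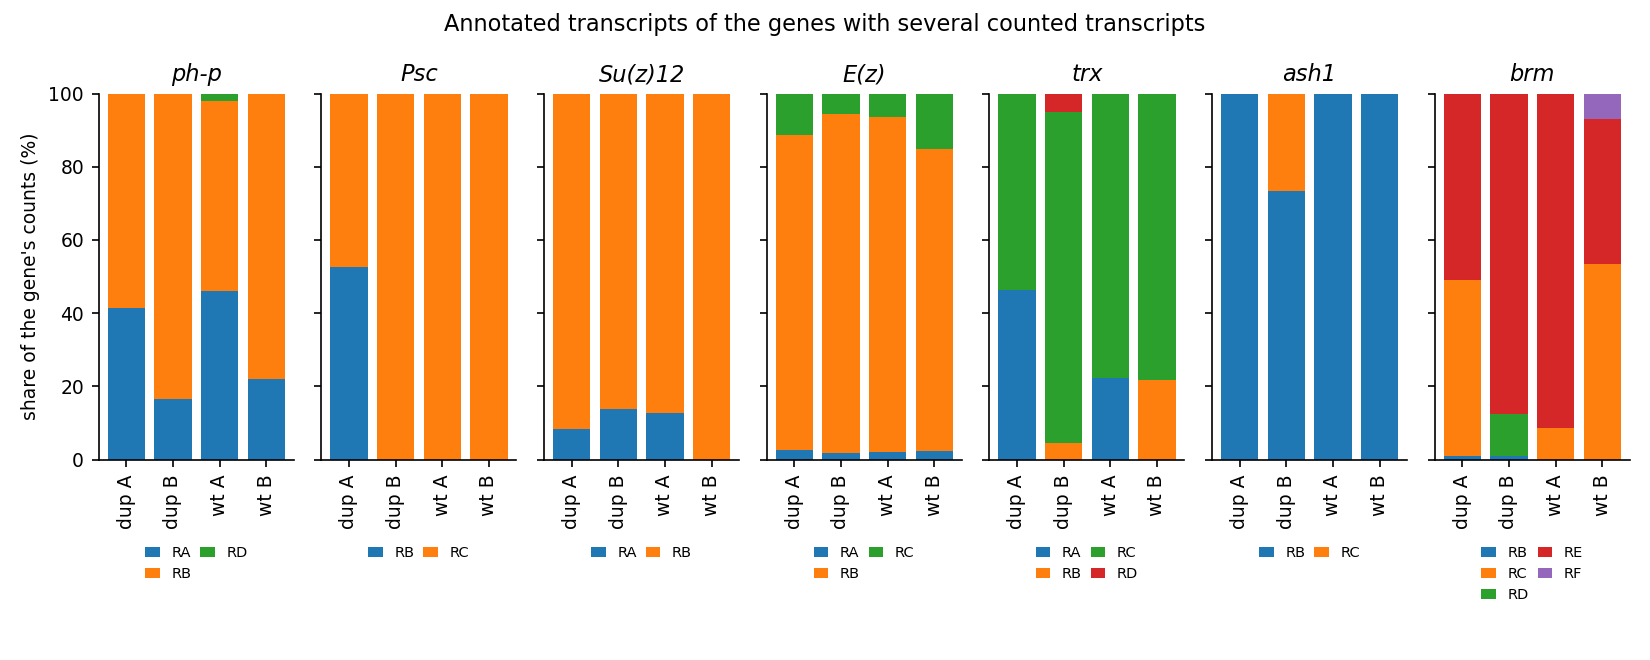
Share of the counts of a gene (%) given to each of its annotated transcripts in the Inr-a duplication (libraries dup A and dup B) and in wild type (libraries wt A and wt B), for the 7 genes with several counted transcripts. E(z) and Su(z)12 keep 1 main transcript in all libraries, while the brm-RC share is 47.9% and 0% in the Inr-a duplication and 8.7% and 53.4% in wild type.

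The other genes of both groups were taken from 6 lists with 62 names, 1 of which, dalao, is a synonym of the listed Bap111, so that 61 genes were found and tested. Limma called 0 of these 61 genes and voom also 0, while an unadjusted p below 0.05 was reached by 14 higher and 0 lower, beside 12.2% and 8.61% of all genes tested. The log2 fold change was above 0 for 44 of them and below 0 for 17, with a median of 0.33, which was 0.05 with the length trend taken out. A negative log2 fold change was found for 11 of the 15 genes shorter than 2000 nt, beside 63.7% of all genes of that length, and a positive one for 30 of the 34 genes of 4000 nt or longer, beside 82.8% of all genes of that length. Without wild type library A, 5 of the 61 were called higher, beside 3.83% of all genes in that fit, and without Inr-a duplication library A 6 were, beside 4.76%. Leaving out either library B called 0 of the 61.

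Among 6 partners of PRC1, none was called and the median log2 fold change was 0.29. RAF2, a subunit of a variant PRC1 with Kdm2, had 232 and 274 counts in the Inr-a duplication against 127 and 108 counts in wild type, a log2 fold change of 0.80 at an adjusted p = 0.124 from limma. Su(z)2, a paralog of Psc, had 79 and 144 counts in the Inr-a duplication against 77 and 26 counts in wild type, a log2 fold change of 0.88 at an adjusted p = 0.197 from limma. The RAF2 libraries did not overlap between the genotypes, while those of Su(z)2 did. Of the 6 partners, 2 had both Inr-a duplication libraries above both wild type libraries in CPM, and 2 had both below. Over all genes tested these shares were 22.9% and 30.3%.

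Among 5 partners of PRC2, none was called and the median was 0.55. The lowest p of all 61 genes belonged to Jarid2, a subunit that helps to bring PRC2 to chromatin, with 510 and 577 counts in the Inr-a duplication against 329 and 172 counts in wild type. Its log2 fold change was 0.90, with an adjusted p = 0.093 from limma, and 0.47 with the length trend taken out. Pcl, which tethers PRC2 to its sites, had 244 and 352 counts in the Inr-a duplication against 202 and 116 counts in wild type, with an adjusted p = 0.226 from limma.

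The 14 genes of PhoRC, PR-DUB and the factors that recruit PcG complexes had a median log2 fold change of 0.50, with 13 of 14 above 0 and none called. Dsp1, a DNA-binding HMG protein, had 519 and 803 counts in the Inr-a duplication against 335 and 297 counts in wild type, a log2 fold change of 0.75 at an adjusted p = 0.137 from limma. lolal, a BTB protein that binds the GAGA factor, had 388 and 677 counts in the Inr-a duplication against 302 and 213 counts in wild type, a log2 fold change of 0.73 at an adjusted p = 0.166 from limma. lolal measures 1686 nt and its log2 fold change was 0.81 with the length trend taken out.

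The 15 genes of the histone methylation complexes around trx, trr and Set1 had a median of 0.33, with 10 above 0 and 5 below and none called. Hcf, a cofactor shared by several chromatin complexes, had 482 and 809 counts in the Inr-a duplication against 336 and 266 counts in wild type, with a log2 fold change of 0.78 at an adjusted p = 0.134 from limma. wds, a WD40 subunit of these complexes, had 317 and 288 counts in the Inr-a duplication against 154 and 140 counts in wild type, with a log2 fold change of 0.74 at an adjusted p = 0.14 from limma. wds, at 1973 nt, kept 0.76 with the length trend taken out, and its libraries were close to each other within each genotype.

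The 10 other subunits of the BAP and PBAP complexes, in which brm is the motor, had a median of 0.06, with 5 above 0 and 5 below and none called. The lowest p among them belonged to short genes with negative values. Snr1 had 1284 and 979 counts in the Inr-a duplication against 1347 and 1261 counts in wild type, a log2 fold change of -0.49 at an adjusted p = 0.283 from limma. Bap60 had 2831 and 1879 counts in the Inr-a duplication against 2834 and 2375 counts in wild type, a log2 fold change of -0.44 at an adjusted p = 0.353 from limma. In CPM both Inr-a duplication libraries lay below both wild type libraries for each of these, as for 30.3% of all genes tested.

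The 11 remaining TrxG genes had a median of 0.35, and -0.06 with the length trend taken out, with none called. E(bx), the large subunit of the NURF remodelling complex, had 456 and 808 counts in the Inr-a duplication against 457 and 176 counts in wild type, with an adjusted p = 0.18 from limma. vtd, a cohesin subunit, had 415 and 635 counts in the Inr-a duplication against 257 and 293 counts in wild type, with a log2 fold change of 0.62 at an adjusted p = 0.215 from limma. In CPM E(bx) overlapped between the genotypes and vtd did not, where 22.9% of all genes tested had both Inr-a duplication libraries above both wild type libraries.

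**Figure D5:**
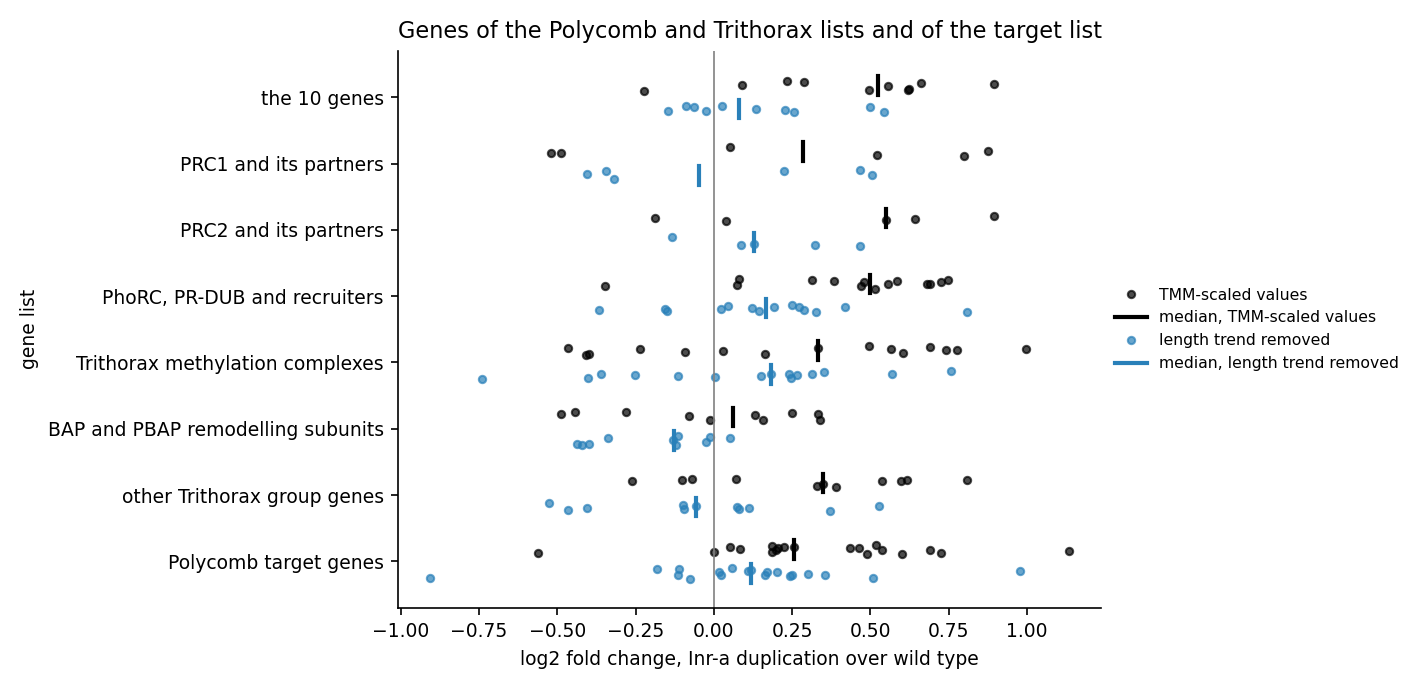
Log2 fold change of the Inr-a duplication over wild type for each tested gene (points) of the 10 genes, the 6 other PcG and TrxG lists and the target list, with medians as vertical bars, on TMM-scaled values (black) and with the length trend removed (blue). Every list median lies closer to 0 with the trend removed except that of the BAP and PBAP subunits, which moves to -0.13 beside 0.06.

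A list of 23 known PcG target genes held 19 that passed the filter, while eve, gt, hb and tin had too few counts in these larvae. Limma called 0 of the 19 and voom 0, and an unadjusted p below 0.05 was reached by 3 higher and 0 lower, a share of the 19 near the 12.2% of all genes tested that were higher. Their median was 0.26 in log2 fold change, and 0.12 with the length trend taken out. wg, the Wnt ligand that patterns segments and discs, had 123 and 137 counts in the Inr-a duplication against 75 and 27 counts in wild type, a log2 fold change of 1.13 at an adjusted p = 0.084 from limma. Abd-B, the most posterior Hox gene, had 112 and 124 counts in the Inr-a duplication against 54 and 59 counts in wild type, a log2 fold change of 0.73 at an adjusted p = 0.190 from limma. Dll, which specifies the distal parts of appendages, had 137 and 167 counts in the Inr-a duplication against 91 and 62 counts in wild type, a log2 fold change of 0.69 at an adjusted p = 0.203 from limma. The groups did not overlap for any of these 3 genes, which were picked for the lowest p in the list. In the whole target list 7 genes had both Inr-a duplication libraries above both wild type libraries in CPM, and 1 had both below. Over all genes tested these shares were 22.9% and 30.3%.

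Marker genes of several tissues were compared in the same libraries. In bulk larvae fewer cells of a type and less RNA per cell cannot be told apart. The summed level of 6 imaginal disc markers, which include Dll and vg of the target list, was 82.5 and 111 CPM in the Inr-a duplication against 67.5 and 58.5 CPM in wild type. Of these, 6 of 6 were above 0 in log2 fold change, beside 51.5% of all genes tested, and 0 were called. At an unadjusted p below 0.05 limma gave 4 of the 6 higher, beside 12.2% of all genes tested, and 0 lower. With the length trend taken out 6 of 6 stayed above 0. The 5 tested muscle markers summed to 2516 and 4206 CPM in the Inr-a duplication against 1744 and 1223 CPM in wild type, and 2 of 5 were called higher, Mhc and Act57B, by limma and by voom, beside 1.72% of all genes tested in limma. The 5 hemocyte markers summed to 229 and 282 CPM in the Inr-a duplication against 196 and 118 CPM in wild type, with 2 of 5 called higher by limma, Hml and NimC1, of which voom called Hml alone. The 6 neuron and glia markers, at 182 and 227 CPM in the Inr-a duplication and 171 and 190 CPM in wild type, had 0 called, and so had the 8 testis markers, at 216 and 248 CPM in the Inr-a duplication and 291 and 244 CPM in wild type, the 5 germline markers and msl-2. The larval fat body genes and 5 of 6 glue genes were too abundant for recovered counts, with the authors' means summing to 75810 CPM in the Inr-a duplication and 65371 CPM in wild type for fat body and to 26031 CPM in the Inr-a duplication and 24010 CPM in wild type for glue. The glue gene with recovered counts, Sgs1, had 282 and 519 CPM in the Inr-a duplication and 519 and 101 CPM in wild type and was not called. The 10 genes themselves summed to 230 and 261 CPM in the Inr-a duplication, against 252 and 149 CPM in wild type. Wild type library B was below wild type library A for these genes, Sgs1 and the disc, muscle, hemocyte and testis markers. From wild type library A to B the 10 genes went from 252 to 149 CPM and the hemocyte markers from 196 to 118 CPM. Disc markers went from 67.5 to 58.5 CPM, muscle markers from 1744 to 1223 CPM and testis markers from 291 to 244 CPM. Sgs1 went from 519 to 101 CPM. For the neuron and glia markers, the germline markers and msl-2, wild type library B was above wild type library A. What part tissue content has in the values of the 10 genes was not tested.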

How the data were processed

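RNA from 2 Inr-a duplication and 2 wild type libraries of larvae was used. Per the study's methods, the authors trimmed reads with Trimmomatic, quantified transcripts with Salmon 1.4.0 on BDGP6, imported them with tximport, used DESeq2 for differential expression, and deposited mean CPM per genotype for 30090 transcripts. A further deposited column, the ratio of these means, is the authors' comparison and was not used. For each deposited mean CPM, all pairs of whole counts matching it were listed. A single pair came out for 99.7% of the Inr-a duplication and 99.4% of the wild type transcripts above 0, and for every transcript of the 10 genes. The 128 genes with a transcript of several pairs, which hold 39.3% of the Inr-a duplication and 39.0% of the wild type CPM, were left out of the tests. Counts are estimates of read assignment rounded to whole numbers upstream, so intervals cover counting error only.

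Transcripts were summed by symbol and chromosome. The filter asked for at least 10 counts, scaled to the median total, in 2 or more libraries, and a sum of 15 or more. Limma 3.58.1 (R 4.3.3, trend) was run on log2(TMM-scaled CPM + 0.5), with Benjamini-Hochberg adjustment over 11540 genes and a threshold of 0.05, which called 199 genes higher and 58 lower. A fold change on this scale understates the change of low genes. TMM factors were 0.942 and 1.04 for the Inr-a duplication and 1.01 and 1.01 for wild type. Length trends were removed with lowess (span 0.3) on the longest annotated transcript. Alternatives were other scalings, pseudocounts and filters, voom, transcripts in place of genes, and leaving out each library. Scripts were tested on simulated data. Positions and lengths come from Ensembl release BDGP6.54, in which 29964 of 30090 transcripts were found. Tables and plots were made with pandas 2.3.3, numpy 2.4.6, scipy 1.17.1 and matplotlib 3.10.9 on Python 3.11.15.

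The genes and lists were chosen with earlier results of these data known. Named are the 10 genes, Inr-a, the 2 genes of lowest p in each other PcG and TrxG list, the 3 of lowest p in the target list, and transcripts with at least 20% of the CPM of their gene in either genotype.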

Additional observations from a re-analysis of the deposited data

How the results depend on the processing

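The number of the 10 genes called higher was 0 under all alternatives except the one without wild type library A, where it was 4. It was 0 throughout for lower. Leaving out 1 library gave 87 to 542 genes higher and 33 to 489 lower over all genes tested, and a median log2 fold change of the 10 genes from 0.045 to 0.886. Library size in place of TMM gave 59 genes higher and 17 lower, no filter on low counts 45 and 14, no trend in the prior variance 129 and 29, and the transcript level fit 0 and 0. The median of the 10 genes was 0.080 with the length trend removed. With the trend removed, Su(z)12, E(z) and brm changed sign, to -0.064, -0.024 and -0.090. Leaving out 1 library gave -0.35 to 1.33 for trx, -0.092 to 1.19 for ash1 and -0.14 to 0.70 for brm, each negative only without wild type library B. With the trend removed and a library left out, a pairing of choices made after the data were seen, Su(z)12, E(z) and brm stood at -0.13, -0.084 and -0.27 without Inr-a duplication library A, E(z) and esc at -0.039 and 0.014 without wild type library A, and ph-d, Su(z)12, E(z), trx, ash1 and brm at -0.13, -0.15, -0.020, -0.44, -0.27 and -0.34 without wild type library B. The cause was not tested. Among the other lists, genes called higher numbered 0 to 3 for PhoRC, PR-DUB and recruiters, 0 to 2 for the methylation complexes, 0 to 2 for the remaining TrxG genes, and 0 to 1 for the PRC1 partners, the PRC2 partners and the target genes, when a library was left out, and 0 to 1 target genes were called lower. The highest counts of the recruiters and of the methylation complexes came without Inr-a duplication library A. A tolerance 10 times wider kept the same pair for 24231 of 24307 Inr-a duplication and 23477 of 23492 wild type transcripts. No paired analysis was possible because the deposited columns carry no replicate numbers. Depth limits the less abundant genes most, with counts per library from 54 for Pc to 1083 for brm.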

Other observations

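The neighbouring paralogs en and inv, both PcG targets, had log2 fold changes of opposite sign, and they were picked out after their values were seen. en had 136 and 137 counts in the Inr-a duplication against 96 and 91 counts in wild type, a log2 fold change of 0.26. inv had 455 and 224 counts in the Inr-a duplication against 437 and 353 counts in wild type, a log2 fold change of -0.56, and limma gave an adjusted p = 0.642 for en and 0.286 for inv, while the difference between them was not tested. inv is one of 2 tested target genes with a negative value, beside tll, for which limma gave an adjusted p = 0.999.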
